A study of Mus musculus with 10 samples.

Results

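The proteasome genes of the mouse cochlear inner hair cell (IHC) and outer hair cell (OHC) were taken as every gene whose symbol begins with Psma, Psmb, Psmc, Psmd, Psme, Psmf or Psmg followed by a number, which gave 49 of the 48440 genes in the expression table. IHCs are the sensory cells that pass sound to the auditory nerve, and OHCs are the motile cells that amplify sound within the cochlea. Both cell types came from untreated adult mice of the CBA/J strain, which keeps its hearing in early adult life, at 28 to 32 days of age. Each library held about 1000 cells pooled from several animals, picked one at a time with a suction pipette and identified by their shape after enzymatic digestion of the organ of Corti. There were 2 IHC libraries and 3 OHC libraries, each sequenced in 2 lanes.

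The 26S proteasome is the large protease that degrades proteins tagged with ubiquitin. Its 20S core is a barrel of stacked rings: the outer rings are made of alpha subunits, which form the gate, and the inner rings of beta subunits, of which Psmb5, Psmb6 and Psmb7 carry the cutting sites. The 19S cap consists of a base, with ATPases that unfold the substrate, and a lid, which removes ubiquitin chains. In immune cells and in cells exposed to interferon the cutting subunits are exchanged for Psmb8, Psmb9 and Psmb10 to form the immunoproteasome, and the cap may be replaced by the activators PA28 or PA200.

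Levels are in RPKM, read counts scaled for transcript length and for library size, so levels of different genes are set against each other per length. The library sizes used in that scaling, as worked out from the values, were 19987044 to 23083994 reads. They are not the number of reads sequenced. The IHC marker list summed to 5447 to 5517 RPKM in IHC libraries and 301 to 312 RPKM in OHC libraries. The OHC marker list summed to 443 to 468 RPKM in IHC libraries and 14177 to 15081 RPKM in OHC libraries. Most of these sums came from Calb2 (5080 and 5159 RPKM in IHC libraries) and Ocm (13579, 12729 and 12726 RPKM in OHC libraries). All 5 genes of each list were higher in the cell type they mark, so both marker lists fit the labels. Supporting-cell markers, 4 of 6 of which were higher in IHCs and 1 in OHCs, summed to 1009 RPKM in both IHC libraries and 551 to 557 RPKM in OHC libraries. Leukocyte markers, of which 10 of 13 tested were higher in OHCs and 2 in IHCs, summed to 36.6 to 37.7 RPKM in IHC libraries and 126 to 127 RPKM in OHC libraries, and the neutrophil genes S100a8, S100a9 and Ngp alone averaged 0.135, 0.274 and 0.0368 RPKM in IHCs and 27.5, 26.3 and 22.3 RPKM in OHCs. Ptprc, the defining leukocyte surface gene, was at 0 in both IHC libraries and at 0 to 0.0220 RPKM in OHC libraries. Fibrocyte and mesenchyme markers, 5 of 7 of which were higher in OHCs and 1 in IHCs, summed to 321 to 323 RPKM in IHC libraries and 645 to 663 RPKM in OHC libraries, and Schwann cell markers, 2 of 3 higher in OHCs, to 1.44 to 1.5 RPKM in IHC libraries and 2.89 to 3.20 RPKM in OHC libraries. Of the markers called towards OHCs, Ngp, Cd52 and Col3a1 had reached the filter on low values (0.1 RPKM in 2 libraries) through the OHC libraries alone. Among all 16462 genes tested 34.4% were called towards IHCs and 34.4% towards OHCs. Erythrocyte markers summed to 343 to 356 RPKM in IHC libraries and 1552 to 1666 RPKM in OHC libraries. The part of these other cells in the results that follow was not tested.

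Most proteasome genes were higher in IHCs. Of the 49 genes, 34 were higher in IHCs (69.4%), 3 had their higher level in OHCs (6.12%) and 12 passed in neither direction (limma, adjusted p under 0.05 over all genes). One of the 34, Psma8, had passed the filter on low values through the IHC libraries alone, which leaves 33 of 48 without it. Among all 16462 genes tested the background was 34.4% towards IHCs and 34.4% towards OHCs. The median difference of the 49 genes, IHC minus OHC, was 0.30 on the log2(RPKM + 0.1) scale, a 1.23-fold difference, against -0.0053 for all genes tested. Well-expressed genes as a whole leaned the same way: among the 4736 genes averaging 10 RPKM or more over the libraries, 52.3% passed towards IHCs and 29.1% towards OHCs, with a median of 0.17. Of the 40 proteasome genes at that level, 31 passed towards IHCs (77.5%) and 2 towards OHCs, with a median of 0.31. Quantile normalization of the libraries changed the split to 25 towards IHCs and 6 towards OHCs, and in it the difference of Psmd12 and Psme3, both among the 34, turned negative. In such bulk pools RNA of the picked hair cells and RNA carried over from other cells cannot be told apart.

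**Figure D1:**
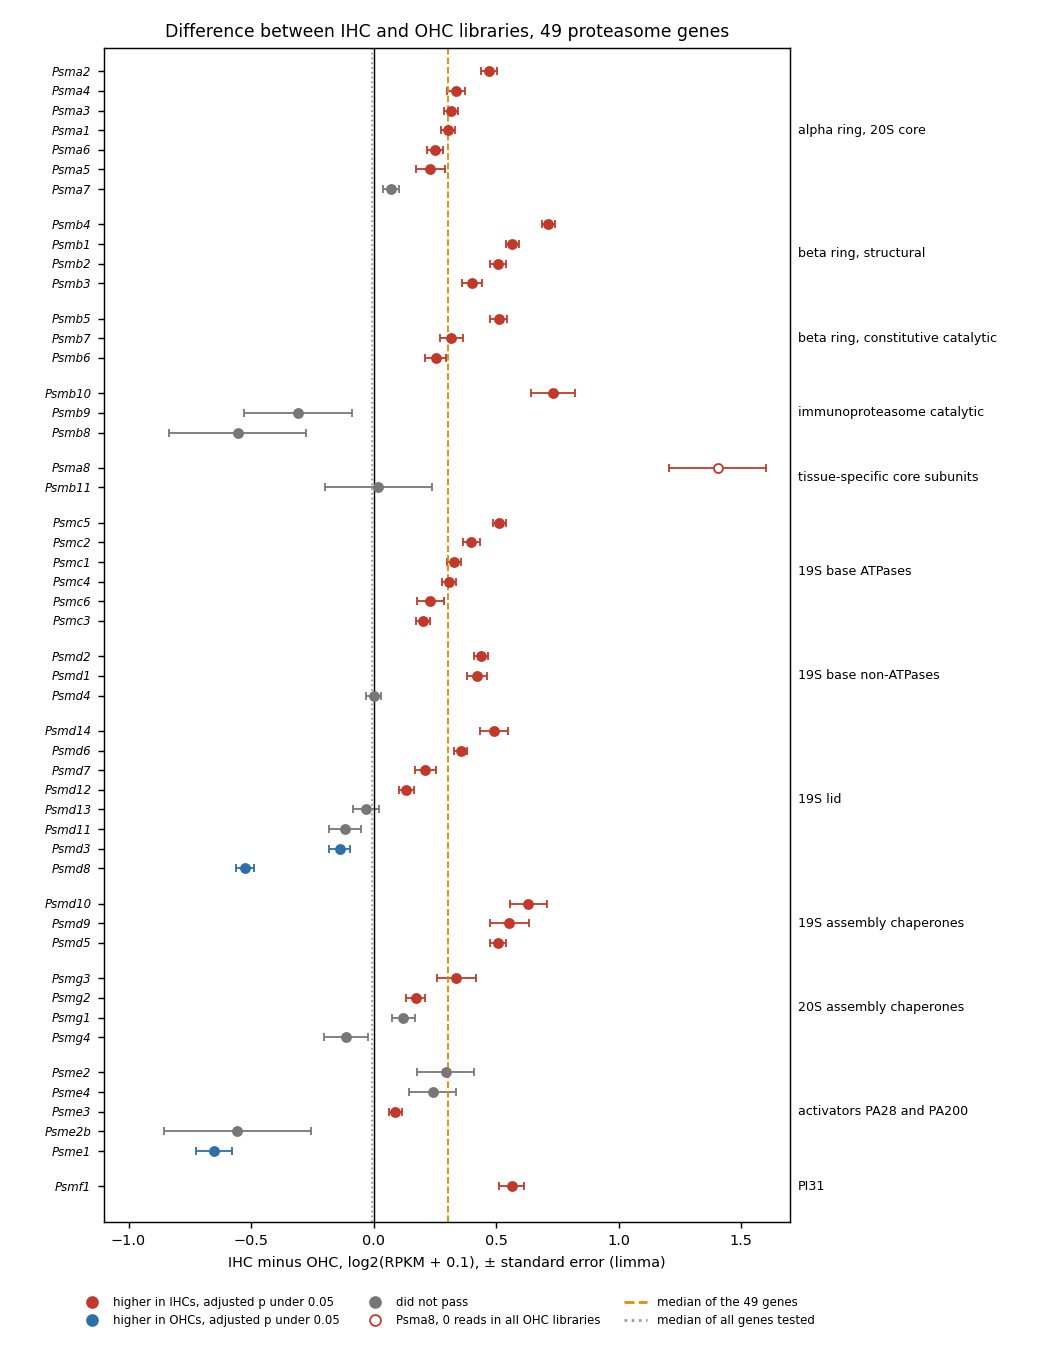
Difference IHC minus OHC on the log2(RPKM + 0.1) scale (x axis) for each of the 49 proteasome genes (rows), grouped by role, with bars of 1 standard error from limma, over 2 IHC and 3 OHC libraries. Red points were higher in IHCs, blue points higher in OHCs and grey points did not pass. 34 genes lie in red to the right of 0, and Psmd3, Psmd8 and Psme1 lie in blue to the left. The open point is Psma8, whose fitted value is no bound because it had 0 reads in every OHC library. The dashed line is the median of the 49 genes (0.30) and the dotted line that of all genes tested (-0.0053).

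The alpha ring was higher in IHCs in 6 of its 7 genes, with a median log2 difference of 0.30. Psma2 (chr13:14613240-14674236, GRCm38), a gate-forming alpha subunit, had the highest level of all 49 genes. It measured 312 and 319 RPKM in IHC libraries, against 235, 224 and 224 RPKM in OHC libraries. The groups were well apart, at 1.39-fold (log2 0.47 ± 0.033 SE, adjusted p = 7.99e-05). The other 5 genes that passed, Psma1, Psma3, Psma4, Psma5 and Psma6, were 1.17- to 1.26-fold higher in IHCs. The call of Psma5 was lost without IHC library 1 (adjusted p = 0.0575), without IHC library 2 (adjusted p = 0.0699) and with TPM, in which libraries are rescaled to a common total (log2 0.12), and those of Psma5 and Psma6 with quantile normalization (log2 0.058 and 0.067). Psma7 did not pass, at 66.1 and 66.6 RPKM in IHC libraries and 64.8, 63.6 and 61.1 RPKM in OHC libraries (adjusted p = 0.116).

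The 4 beta subunits with no cutting site were all higher in IHCs, with a median log2 difference of 0.54. Psmb4 (chr3:94884093-94886961) stood at 143 RPKM in both IHC libraries, against 87.9, 88.4 and 85.5 RPKM in OHC libraries. Its 1.64-fold difference (log2 0.71 ± 0.027 SE) had the smallest adjusted p of the 49 genes, 8.06e-06. Psmb1, the most abundant of the beta subunits, was at 208 and 204 RPKM in IHC libraries, against 142, 137 and 139 RPKM in OHC libraries. In neither gene did the groups overlap. Psmb2 was 1.42-fold and Psmb3 1.32-fold higher in IHCs.

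The 3 constitutive cutting subunits were also all higher in IHCs, although Psmb6 no longer passed with quantile normalization (log2 0.082, adjusted p = 0.0895). Psmb5 (chr14:54614119-54618022), which cuts after hydrophobic residues, had 125 and 119 RPKM in IHC libraries, against 87.6, 85.8 and 84.2 RPKM in OHC libraries (1.42-fold, adjusted p = 6.78e-05). Psmb6, which cuts after acidic residues, had 159 and 163 RPKM in IHC libraries, against 142, 133 and 131 RPKM in OHC libraries (1.19-fold, adjusted p = 0.00299). Psmb7, which cuts after basic residues, had 17.7 and 18.2 RPKM in IHC libraries, against 14.9, 14.6 and 13.7 RPKM in OHC libraries (1.25-fold, adjusted p = 0.00186). The IHC values lay above the OHC values in each of them, and Psmb7 was the lowest of the 14 constitutive core genes in both cell types. Of the 31-base words in the annotated transcripts of Psmb5, 59.8% are also found in those of Gm3375, so its reads could be divided between both. Gm3375 itself was listed at 49.2 and 49.4 RPKM in IHC libraries and 33.9, 29.7 and 32.5 RPKM in OHC libraries, a 1.54-fold ratio in the same direction.

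**Figure D2:**
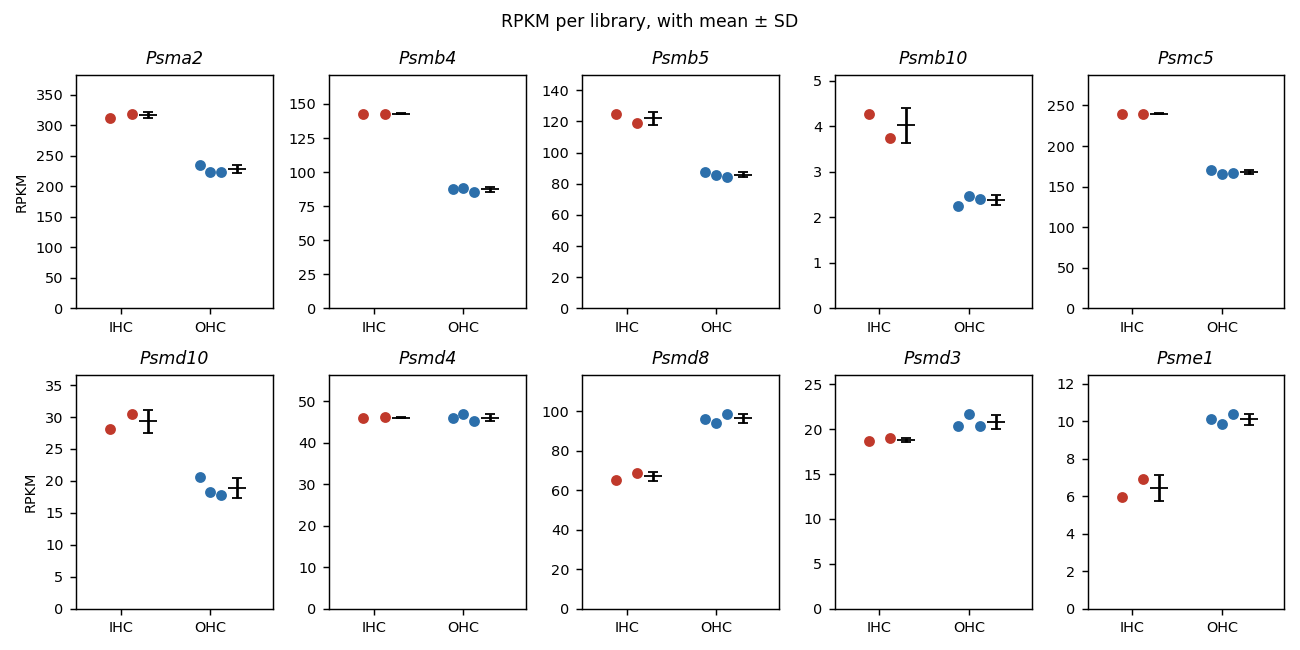
RPKM (y axis, from 0) of 10 proteasome genes in each of the 2 IHC libraries (red) and 3 OHC libraries (blue), with the mean and SD in black. Psma2, Psmb4, Psmb5, Psmb10, Psmc5 and Psmd10 lie higher in IHCs, Psmd8, Psmd3 and Psme1 lie lower in IHCs, and Psmd4 averaged 46.1 RPKM in both.

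Expression of the immunoproteasome subunits was low in both hair cell types. Psmb8 (chr17:34197721-34201454) was counted with 4 and 10 reads in IHC libraries, against 12, 15 and 11 reads in OHC libraries, or 0.0656 and 0.179 RPKM against 0.190, 0.261 and 0.201 RPKM. Psmb9 (chr17:34181987-34187764) had 10 and 9 reads in IHC libraries, against 16, 17 and 9 reads in OHC libraries, or 0.123 and 0.121 RPKM against 0.189, 0.221 and 0.123 RPKM. Neither passed the test over all lanes (adjusted p = 0.124 and 0.259). Psmb8 did pass towards OHCs when lane 2 of IHC libraries 1 and 2 and of OHC library 1, which divided reads of Psme2 and Psme2b in another way, was left out (7 lanes, log2 -1.07, adjusted p = 0.0497). These 7 lanes held 0 and 4 of its reads in IHC libraries and 7, 15 and 11 in OHC libraries, and Psmb8 was at 0.060 in the other 3 lanes. Psmb10 (chr8:105935735-105938444) was different: it had 4.28 and 3.75 RPKM in IHC libraries, against 2.25, 2.47 and 2.41 RPKM in OHC libraries. Its 1.69-fold difference towards IHCs (log2 0.73 ± 0.091 SE, adjusted p = 8.17e-04) was larger than the spread of either group.

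Set against the subunit it replaces, Psmb8 made up 0.0523% and 0.15% of the summed RPKM of Psmb8 and Psmb5 in IHC libraries and 0.216%, 0.304% and 0.239% in OHC libraries. The share of Psmb9 in Psmb9 and Psmb6 was 0.0770% and 0.0739% in IHC libraries and 0.133%, 0.165% and 0.0942% in OHC libraries. Psmb10 made up 19.5% and 17.0% of Psmb10 and Psmb7 in IHC libraries and 13.2%, 14.4% and 14.9% in OHC libraries. All 3 shares rest on the gene lengths behind the RPKM, such as 1270 bases for Psmb10 and 3421 bases for Psmb7. In reads, Psmb10 had 121 and 97 and Psmb7 1347 and 1272 in IHC libraries. In OHC libraries Psmb10 had 66, 66 and 61 reads and Psmb7 1173, 1053 and 939. The shares did not overlap between the groups, being lower in IHCs for Psmb8 and Psmb9 and higher for Psmb10. With 2 against 3 libraries a two-sided exact permutation test has 10 arrangements and cannot go below p = 0.1. The exact test gave p = 0.1 for Psmb8, p = 0.2 for Psmb9 and p = 0.1 for Psmb10, and none was below 0.1 after adjustment over the 3 shares.

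Genes of the interferon response and of antigen processing, the pathway in which the immunoproteasome works, ran the other way from most proteasome genes. Of 17 such genes 16 passed the filter on low values, Isg15 and Gbp2 through the OHC libraries alone, with 0 reads in both IHC libraries. The other 14 were all higher in OHCs. Towards OHCs passed 34.4% of all genes tested and 29.1% of those averaging 10 RPKM or more. Over the 16 the median log2 difference was -1.43, or -1.45 with the zero-read genes Isg15 and Gbp2 set at their bounds. Fewer than 16 were called when any 1 library was left out, the fewest without IHC library 2. The median and these calls do not set Isg15 and Gbp2 aside. The class I heavy chain gene H2-K1 had 8.55 and 8.75 RPKM in IHC libraries, against 49.9, 50.8 and 47.1 RPKM in OHC libraries. The interferon-induced Ifit1 had 2.13 and 2.24 RPKM in IHC libraries, against 82.4, 84.0 and 87.4 RPKM in OHC libraries, 38.7-fold higher in OHCs. Tapbp, which loads peptides onto class I molecules, was the most abundant, with 48.9 and 46.6 RPKM in IHC libraries and 114, 113 and 111 RPKM in OHC libraries. Nlrc5, a transcriptional activator of class I genes, was below that filter and ran the other way, with 9 and 8 reads in IHC libraries, against 2, 1 and 0 reads in OHC libraries, and passed towards IHCs with no filter (adjusted p = 0.0177). Leukocyte markers were also higher in the OHC libraries (36.6 to 37.7 RPKM summed in IHC libraries, 126 to 127 RPKM in OHC libraries), and their part in this difference was not tested.

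Of the core subunits known from single tissues, Psma8, an alpha subunit of the testis, had 7 and 5 reads in IHC libraries and 0 reads in all 3 OHC libraries. Taking 3 reads per OHC library as the limit that a count of 0 allows, the IHC mean was 1.99-fold that limit. This ratio leaves out the counting error of the 7 and 5 reads, so it is no firm lower bound. Psma8 had passed the filter through the IHC libraries alone, and its call did not hold in the other 3 lanes (log2 1.39). Psmb11, the cutting subunit of the thymus, had 10 and 16 reads in IHC libraries, against 15, 11 and 12 reads in OHC libraries, with overlapping groups. Both genes stayed under 0.2 RPKM in every library.

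In the base of the 19S cap all 6 ATPases were higher in IHCs, by up to 1.43-fold for Psmc5. Psmc1 was 1.25-fold, Psmc2 1.32-fold, Psmc4 1.24-fold and Psmc6 1.17-fold higher, and Psmc3 was lowest in ratio, with 83.2 and 85.2 RPKM in IHC libraries against 74.2, 73.6 and 71.8 RPKM in OHC libraries (adjusted p = 0.00154). Psmc6 no longer passed without IHC library 1 (adjusted p = 0.0526), without IHC library 2 (adjusted p = 0.0609), in lane 1 alone or with TPM, and neither Psmc6 nor Psmc3 with quantile normalization. Psmc5 was the most abundant ATPase, with 240.0 and 239 RPKM in IHC libraries, against 171, 166 and 167 RPKM in OHC libraries (log2 0.51 ± 0.026 SE, adjusted p = 2.15e-05). The scaffold subunit Psmd2, with 96.0 and 93.4 RPKM in IHC libraries against 69.2, 69.6 and 70.7 RPKM in OHC libraries, was 1.36-fold higher in IHCs, and Psmd1, the other scaffold, 1.34-fold. Psmd4, a ubiquitin receptor, did not follow them. It measured 46.0 and 46.2 RPKM in IHC libraries and 46.1, 47.0 and 45.2 RPKM in OHC libraries (log2 0.0002 ± 0.030 SE, adjusted p = 0.995), and passed towards OHCs with TPM (log2 -0.11) and with quantile normalization (log2 -0.17).

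The lid was the most mixed of the larger subcomplexes: of 8 genes, 4 were higher in IHCs, Psmd8 and Psmd3 were higher in OHCs, and Psmd11 and Psmd13 did not pass, with a median log2 difference of 0.052. The direction of that median depended on the scaling: TPM gave 2 towards IHCs, 3 towards OHCs and a median of -0.060, and quantile normalization gave 2, 2 and -0.071. Psmd6, the most abundant lid gene, had 284 and 288 RPKM in IHC libraries, against 223, 219.9 and 228 RPKM in OHC libraries (1.28-fold, adjusted p = 1.08e-04). Psmd14, the enzyme that removes ubiquitin chains from the substrate, was 1.41-fold higher in IHCs, with 27.8 and 29.5 RPKM in IHC libraries and 21.7, 19.7 and 19.7 RPKM in OHC libraries. Psmd7, its partner in the lid, was 1.16-fold and Psmd12 1.10-fold higher in IHCs, and neither passed with TPM or with quantile normalization, in which Psmd12 turned to -0.044. Psmd12 also lost its call without IHC library 2 (adjusted p = 0.0627).

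Psmd8, a lid subunit (chr7:29174188-29180701), ran against most of the particle. It had 65.3 and 68.7 RPKM in IHC libraries, against 96.3, 94.3 and 98.7 RPKM in OHC libraries. The groups did not overlap, and the gene was 1.44-fold higher in OHCs (log2 -0.52 ± 0.036 SE, adjusted p = 7.19e-05). Psmd3, another lid subunit, had 18.7 and 19.03 RPKM in IHC libraries, against 20.3, 21.7 and 20.3 RPKM in OHC libraries, a 1.10-fold difference towards OHCs (adjusted p = 0.0308) that no longer passed without either IHC library or without OHC library 2 (log2 -0.15 to -0.11). Psmd11 was the lowest of the 17 base and lid genes in both cell types, with 6.65 and 7.47 RPKM in IHC libraries and 7.85, 7.61 and 7.48 RPKM in OHC libraries. Psmd11 did not pass over all lanes (adjusted p = 0.162), but passed towards OHCs in the same 7 lanes (log2 -0.22, adjusted p = 0.0109), in lane 1 alone (-0.18) and with TPM (-0.23). Its reads differed between the lanes of IHC library 2 (424 and 547 reads, adjusted p = 0.00325, exact binomial test over 225 lane comparisons). Psmd13 did not pass either, with 13.2 and 12.6 RPKM in IHC libraries and 13.8, 13.3 and 12.6 RPKM in OHC libraries (adjusted p = 0.644).

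Summed over genes, the alpha ring reached 712 ± 11.6 RPKM in IHCs and 563 ± 13.5 RPKM in OHCs (SD, n = 2 and 3 libraries), a ratio of 1.26. The constitutive beta ring reached 904 ± 0.662 RPKM in IHCs and 645 ± 14.1 RPKM in OHCs, a ratio of 1.40. For the 19S base the sums were 874 ± 2.88 RPKM in IHCs and 683 ± 1.43 RPKM in OHCs, a ratio of 1.28. The lid differed by less, with 539 ± 9.63 RPKM in IHCs and 487 ± 3.03 RPKM in OHCs, a ratio of 1.11. The summed RPKM of all genes was itself 1.08-fold higher in IHC libraries (392967 and 397755) than in OHC libraries (368196, 365065 and 364087). As a share of that total the ratios were 1.17 for the alpha ring, 1.3 for the beta ring, 1.18 for the base and 1.02 for the lid, whose shares were 0.135% and 0.137% in IHC libraries, against 0.132%, 0.133% and 0.135% in OHC libraries. The summed 20S core over the summed base and lid averaged 1.14 in IHC libraries, against 1.06, 1.03 and 1.01 in OHC libraries. None of the RPKM sums overlapped between the groups, and they and the ratio each reached p = 0.1, the smallest that the exact permutation test allows here.

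**Figure D3:**
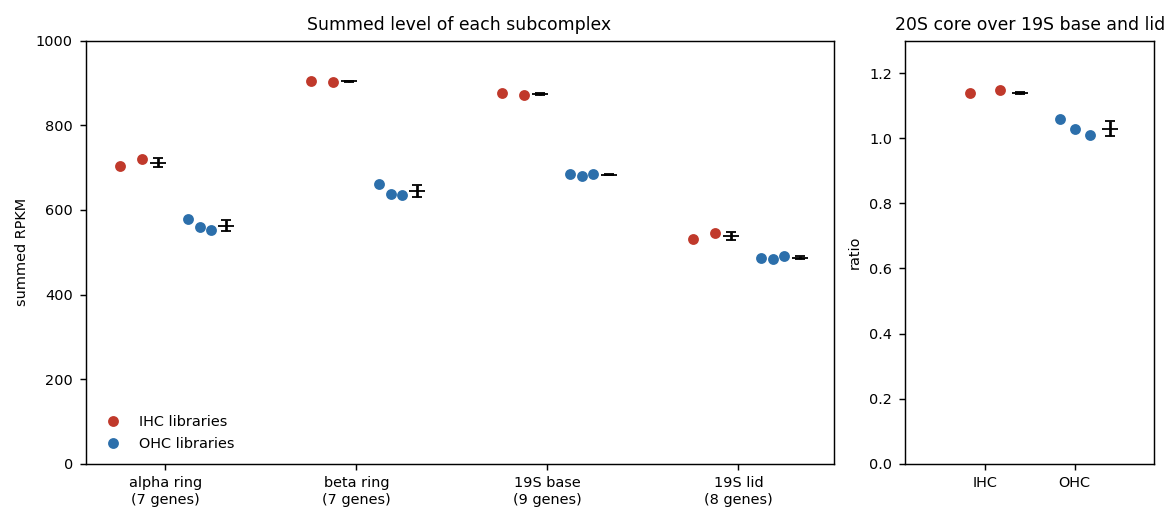
Left, summed RPKM (y axis, from 0) of the genes of 4 proteasome subcomplexes in each IHC library (red) and OHC library (blue). Right, the ratio of the summed 20S core to the summed 19S base and lid. Black marks give the mean and SD. The IHC libraries lie above the OHC libraries in every panel, with the smallest gap for the lid (539 against 487 RPKM).

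Although their levels differed, the order of the subunits was nearly the same in both cell types. The 14 constitutive core genes are present in equal number in the particle. Their mean RPKM ran from 18.0 (Psmb7) to 316 (Psma2) in IHCs, a 17.6-fold range. In OHCs it ran from 14.4 to 228 for the same genes, a 15.8-fold range. Both ranges rest on the gene lengths behind the RPKM, 944 bases for Psma2 and 3421 bases for Psmb7. Psmb6 had more reads than Psma2 in every library, such as 6637 against 6561 in IHC library 1. Spearman's rho between the IHC and OHC means was 0.991 over these 14 genes and 0.975 over the 17 base and lid genes, as a description across genes that share libraries and transcript lengths. Some neighbours in this order differed by less than their spread, as with Psmd8 (67.0 ± 2.40 RPKM) and Psmd7 (66.8 ± 2.39 RPKM) in IHCs, which were 96.4 ± 2.20 and 57.8 ± 2.05 RPKM in OHCs.

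The chaperones that assemble the 19S base were all higher in IHCs, with a median log2 difference of 0.55 over 3 genes. Psmd10 (gankyrin), also known as a liver oncoprotein, had 28.1 and 30.5 RPKM in IHC libraries, against 20.6, 18.3 and 17.8 RPKM in OHC libraries (1.55-fold, adjusted p = 7.07e-04). Psmd5, the most abundant, had 31.5 and 32.0 RPKM in IHC libraries, against 22.0, 22.7 and 22.3 RPKM in OHC libraries, 1.42-fold higher in IHCs. Psmd9 was 1.48-fold higher in IHCs. In each of them both IHC libraries lay above all OHC libraries.

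Among the chaperones of the 20S core, Psmg3 and Psmg2 were 1.26- and 1.13-fold higher in IHCs, whereas Psmg1 and Psmg4 did not pass. Both calls were lost without IHC library 2 (adjusted p = 0.0651 for Psmg3 and 0.0609 for Psmg2), in lane 2 alone, in the other 3 lanes and with quantile normalization. Psmg3 had 21.4 and 22.5 RPKM in IHC libraries, against 18.8, 17.6 and 15.7 RPKM in OHC libraries. Psmg2, the partner of Psmg1 in building the alpha ring, had 32.8 and 33.6 RPKM in IHC libraries, against 30.5, 28.9 and 28.9 RPKM in OHC libraries. Psmg1 was at 21.5 and 23.1 RPKM in IHC libraries and 20.9, 20.6 and 19.9 RPKM in OHC libraries, apart by less than the test asked (adjusted p = 0.0578), and passed without IHC library 1 (adjusted p = 0.0418). Psmg4 was at 27.4 and 33.9 RPKM in IHC libraries, a wide gap, and at 33.3, 32.1 and 33.7 RPKM in OHC libraries, and without IHC library 2 it passed towards OHCs (log2 -0.27, adjusted p = 0.00851). Pomp, which matures the beta rings and is no member of the symbol family, differed by more than any of the 4: it had 47.8 and 50.1 RPKM in IHC libraries, against 24.9, 24.2 and 24.1 RPKM in OHC libraries, 2.01-fold higher in IHCs (adjusted p = 6.71e-06).

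The activators that can take the place of the cap gave a mixed picture. Psme1 (chr14:55578123-55581529), the alpha subunit of the interferon-inducible PA28 ring, had 5.96 and 6.91 RPKM in IHC libraries, against 10.1, 9.87 and 10.4 RPKM in OHC libraries. The groups were apart, and Psme1 was 1.57-fold higher in OHCs (log2 -0.65 ± 0.073 SE, adjusted p = 5.47e-04). The leukocyte markers and the interferon list were higher in the same libraries, and their part in it was not tested. Psme3, the nuclear PA28 ring, was the most abundant activator, with 60.7 and 59.2 RPKM in IHC libraries, against 56.0, 56.9 and 56.2 RPKM in OHC libraries. Its 1.06-fold difference (adjusted p = 0.0303) turned to -0.072 on the log2 scale with quantile normalization and to -0.023 with TPM, and no longer passed when any 1 of the 5 libraries was left out (log2 0.072 to 0.11). Psme4, the PA200 activator, was at 2.37 and 2.42 RPKM in IHC libraries and 1.92, 2.20 and 1.92 RPKM in OHC libraries and did not pass over all lanes (adjusted p = 0.0684). It passed towards IHCs in the same 7 lanes (log2 0.31, adjusted p = 0.0351), with quantile normalization (0.32) and without OHC library 2 (0.30). Psmf1, the inhibitor PI31, had 12.8 and 13.1 RPKM in IHC libraries, against 9.15, 8.48 and 8.55 RPKM in OHC libraries, 1.48-fold higher in IHCs (adjusted p = 2.24e-04).

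Psme2 (chr14:55587441-55591113), the beta subunit of PA28, and Psme2b (chr11:48945354-48946190) cannot be read separately. Their coding sequences are both 720 bases long and differ at 5 of them (99.3% identity), and 49.9% of all windows of 100 bases are identical in both. Bases 484 to 543, counted from the start codon, hold 3 of the 5 differences and are shown, from the GENCODE transcripts, with the differing bases in capitals:
Psme2: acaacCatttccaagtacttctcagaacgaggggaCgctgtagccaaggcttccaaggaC
Psme2b: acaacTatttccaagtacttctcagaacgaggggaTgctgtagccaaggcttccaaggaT

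The division of reads between both genes changed in lane 2 of both IHC libraries and of OHC library 1, but not in lane 2 of OHC libraries 2 and 3. The change thus fell unevenly over the cell types. In lane 1, Psme2b received 176 and 147 reads in IHC libraries and 165, 155 and 128 reads in OHC libraries. In lane 2 it received 0 reads in both IHC libraries and 1, 138 and 150 reads in OHC libraries. In the 3 lanes where Psme2b was near 0, Psme2 had 484 and 446 reads in IHC libraries and 475 reads in OHC library 1, against 261 to 313 reads in the other 7 lanes. Added up, the reads of both genes were 42.6 and 44.0 RPM (reads scaled to library size alone) in IHC libraries, against 41.3, 41.0 and 40.5 RPM in OHC libraries, a ratio of 1.06 (exact permutation p = 0.1). In the 7 lanes that gave reads to both, the log2 difference was 0.046 for Psme2 (adjusted p = 0.558) and 0.11 for Psme2b (adjusted p = 0.105). Over all lanes Psme2 gave 0.29 (adjusted p = 0.0647) and Psme2b -0.56 (adjusted p = 0.150), and without OHC library 1 these were 0.41 (adjusted p = 7.77e-04) and -0.87 (adjusted p = 1.14e-04).

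**Figure D4:**
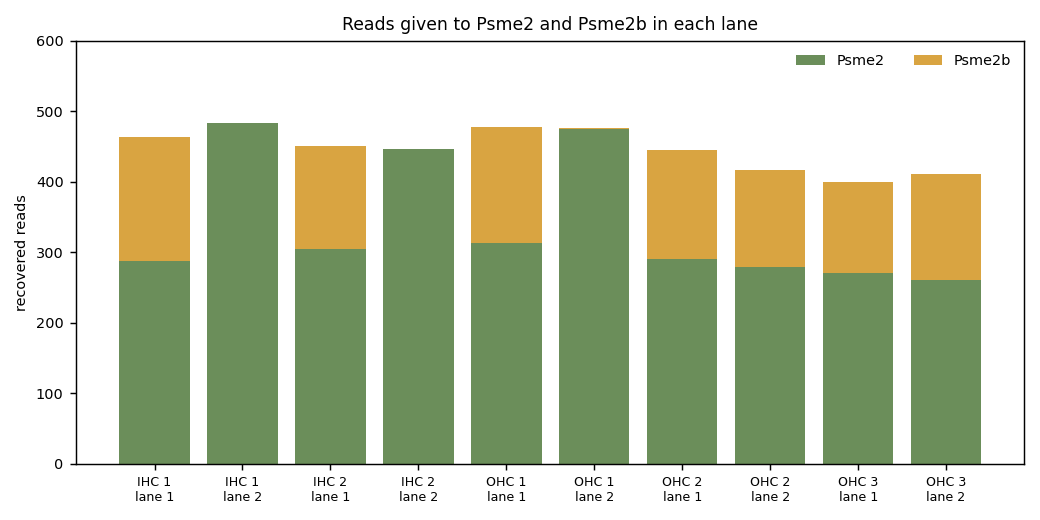
Recovered reads (y axis, from 0) given to Psme2 (green) and Psme2b (yellow, stacked on top) in each lane of the 2 IHC and 3 OHC libraries. The stacks are of like height in all lanes, while Psme2b has 0, 0 and 1 reads in lane 2 of IHC library 1, IHC library 2 and OHC library 1.

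Components outside the symbol family included the largest differences of the particle. Uchl5, a deubiquitinase bound to the cap, had 43.1 and 43.8 RPKM in IHC libraries, against 16.2, 15.6 and 15.6 RPKM in OHC libraries, 2.75-fold higher in IHCs. Its receptor in the cap, Adrm1, did not pass, with 29.6 and 28.5 RPKM in IHC libraries and 30.7, 29.7 and 28.95 RPKM in OHC libraries. Txnl1, a thioredoxin-like cap protein, had 44.7 and 47.1 RPKM in IHC libraries, against 27.1, 28.0 and 28.5 RPKM in OHC libraries, and Usp14, the other cap deubiquitinase, was 1.39-fold higher in IHCs. Shfm1, the small lid subunit, was the most abundant of the 9 such components, with 63.0 and 67.8 RPKM in IHC libraries and 55.7, 51.7 and 48.2 RPKM in OHC libraries. In all, 5 of the 9 were higher in IHCs (55.6%) and the others passed in neither direction. That share is near the 52.3% towards IHCs among all genes averaging 10 RPKM or more, and 34.4% passed among all genes tested.

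Upstream of the proteasome, all 4 listed genes for ubiquitin and its activating enzymes were higher in IHCs. Ubb, which encodes chains of ubiquitin, had 4632 and 4738 RPKM in IHC libraries, against 3862, 3666 and 3621 RPKM in OHC libraries, 1.26-fold higher in IHCs. Of the sequence words in the transcripts of Ubb, 50.3% are also found in other genes, most of them in Gm1821 (49.3%). Its reads differed between lanes in IHC library 1 (81490 and 91144 reads), IHC library 2 (76563 and 85157 reads) and OHC library 1 (70651 and 78635 reads). The 7 lanes gave a log2 difference of 0.28 for Ubb (limma, adjusted p = 1.47e-04), against 0.33 over all lanes. Uba6, an activating enzyme, was 1.88-fold, Rps27a, a ubiquitin fusion gene, 1.62-fold, and Uba1, the main activating enzyme, 1.57-fold higher in IHCs. Of 8 shuttle factors and parts of the p97 unfoldase that deliver substrates, 5 were higher in IHCs (62.5%) and 3 did not pass. Towards IHCs passed 52.3% of all genes averaging 10 RPKM or more and 34.4% of all genes tested. Ubqln4 was 1.998-fold, Ubqln2 1.84-fold and Ufd1l 1.31-fold higher in IHCs, and the most abundant, Vcp, the p97 gene, 1.22-fold. Ubqln1 had 77.8 and 77.0 RPKM in IHC libraries, against 47.6, 47.3 and 50.1 RPKM in OHC libraries.

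Nfe2l1, the transcription factor known to restore proteasome genes when the proteasome is inhibited, had 23.96 and 23.04 RPKM in IHC libraries, against 19.9, 20.3 and 20.02 RPKM in OHC libraries, 1.17-fold higher in IHCs. Of the enzymes that activate it, Ngly1 was 1.38-fold higher in IHCs and the protease Ddi2 was 1.42-fold higher in OHCs, with 4.43 and 3.89 RPKM in IHC libraries and 6.65, 5.42 and 5.62 RPKM in OHC libraries. Its reads differed between lanes in IHC library 1 (387 and 555 reads), IHC library 2 (323 and 434 reads) and OHC library 1 (601 and 865 reads). The 7 lanes gave a log2 difference of -0.64 for Ddi2 (adjusted p = 3.21e-04), against -0.49 over all lanes, and the call was lost in lane 2 alone (adjusted p = 0.104) and without IHC library 2 (adjusted p = 0.0548). Nfe2l2, a relative of Nfe2l1, was 1.18-fold higher in IHCs. Of 6 oxidative stress targets of Nfe2l2, 2 were higher in IHCs (33.3%) and 3 in OHCs (50%). Among all genes tested 34.4% passed in each direction. Hmox1, among the 3, had passed the filter on low values through the OHC libraries alone, with 0 and 3 reads in IHC libraries. Gclm, a subunit of the enzyme of glutathione synthesis, was 1.77-fold higher in IHCs. Txnrd1, thioredoxin reductase, was 4.40-fold higher in OHCs, where it was also the most abundant of the 6.

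Both factors bind the antioxidant response element, whose core is TGACNNNGC. This core (N for any base) was searched on both strands in RefSeq windows of 250 bases before to 50 after each gene start (GRCm38.p6). Of the 49 genes, 41 had such a window and 6 held a match (14.6%), against 13.99% of all 27025 genes with a window and 18.6% of the 3574 with a mean of at least 10 RPKM. Among the genes higher in IHCs 5 of 27 held one, and among the others 1 of 14. The matches of both cutting subunits that held one and of the chaperone Psmd9, which had the largest difference of the 6, are shown on the strand of the gene, with the core in capitals. They belong to Psmb5 (chr14:54618014-54618062, minus strand), Psmb6 (chr11:70525328-70525376, plus strand) and Psmd9 (chr5:123228139-123228187, plus strand), and begin 47, 9 and 31 bases before the gene start:
Psmb5: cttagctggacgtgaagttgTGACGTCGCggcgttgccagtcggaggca
Psmb6: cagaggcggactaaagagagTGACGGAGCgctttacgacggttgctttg
Psmd9: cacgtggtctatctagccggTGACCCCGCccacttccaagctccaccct

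Sequence shared with other genes limits which values can be read alone. In 14 of the 49 genes at least 10% of the 31-base words of their transcripts were found in another gene, and in 3 of them, Psma5, Psmb5 and Psme2b, at least 50%. For Psma5 most of them lie in Gm8394, which was listed at 0 to 0.105 RPKM in all libraries. Psmd8, Psme1, Psmb4 and Psmc5 shared 2.06%, 9.51%, 0% and 0% of their words with any other gene.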

How the data were processed

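RNA of about 1000 IHCs or OHCs per library was reverse transcribed and amplified (SMARTer, Nextera) and sequenced on an Illumina HiSeq. The authors mapped the reads to mm10 (GRCm38) with CLC Genomics Workbench and deposited RPKM values for 48440 genes and 10 lanes; HTSeq is named for the counting, and its handling of reads that fit several genes is not given in the sources used here. Lane 2 of IHC libraries 1 and 2 and of OHC library 1 (the other 3 lanes) was known from earlier results to differ from the remaining 7 lanes in genes that share sequence, and both sets were also fitted alone. Lanes were averaged within each library, since both come from the same cDNA. Genes that reached 0.1 RPKM in 2 or more libraries entered the test on log2(RPKM + 0.1) with limma 3.58.1 (trend, two-sided, 3 residual degrees of freedom, Benjamini-Hochberg over all genes, threshold 0.05) in R 4.3.3. All 49 proteasome genes passed the filter. p-values measure the spread between these libraries, which are pools from a shared set of mice.

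Reads were recovered from RPKM, transcript length and a divisor per lane. Of the values, 69.8% to 70.6% per lane came out whole within 0.01 reads. Lane reads were compared by exact binomial tests in genes with at least 20 reads, adjusted over 225 tests. Limits taken from a count of 0 cover the counting error of that count only. Values after ± are standard errors from limma or the SD between libraries. Full values are given for cutting subunits, the most abundant and the most different called gene of each role, genes over 1.5-fold and genes whose lanes differ, and for other lists up to 4 called genes and the most abundant. Members and lists were chosen with earlier results of these data known, and some genes of the other lists are not reported here. Alternatives covered pseudocount, filter, scaling, lanes, variance model, replicate block and each library left out.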

Additional observations from a re-analysis of the deposited data

How the results depend on the processing

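Across 19 alternatives, 23 genes stayed higher in IHCs and Psmd8 and Psme1 stayed higher in OHCs in every one. The count higher in IHCs ran from 25 (quantile normalization) to 34, and without 1 library from 27 to 34. The count higher in OHCs was 6 with quantile normalization, 5 with TPM and 5 in the 7 lanes, and without 1 library from 2 to 4. The median log2 difference was 0.15 with quantile normalization and 0.19 with TPM, which moved the median of all genes to -0.13, and without 1 library from 0.27 to 0.31. Directions turned with quantile normalization for Psma7 (-0.094), Psmb9 (0.044), Psmd12 (-0.044), Psmd4 (-0.17), Psme3 (-0.072) and Psmg1 (-0.021), and with TPM for Psma7 (-0.042), Psmb11 (-0.070), Psmd4 (-0.11) and Psme3 (-0.023). Psmd4 was also -0.024 with median-of-ratios scaling, -0.0097 in lane 2 and -0.015 in the other 3 lanes, in which Psmb8 was 0.060. Psme2b was 0.12 in lane 1 and 0.11 in the 7 lanes. Without 1 library Psmb11 ran from -0.22 to 0.25, Psmd13 from -0.065 to 0.0053, Psmd4 from -0.014 to 0.014 and Psmg4 from -0.27 to 0.038. The cause was not tested. Taking Psme2 and Psme2b together, the shares of total RPKM and the counts without genes that passed the filter through 1 group were chosen after seeing the data.

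With the replicate number as a replicate block, which leaves 1 residual degree of freedom, the counts were 32 towards IHCs and 2 towards OHCs, and Psmd4 was -0.014. Deviations of libraries with the same number correlated at 0.0125 and -0.0197. With 2 IHC libraries their deviations from the mean mirror each other, so these are not separate values. They cannot decide whether the numbers pair the libraries. Depth limits Psma8, Psmb8, Psmb9 and Psmb11, which had 0 to 17 reads per library.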
